A study of Mus musculus with 7 samples.

Results

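The genes described here are the neighbours of Slmap on mouse chromosome 14. They were taken as the rows of the deposited expression table that carry 1 of 40 listed gene symbols, all of genes within 5 Mb of Slmap, and all 40 were found among the 25461 genes of the table. Slmap itself and Wnt5a were left out of the list. Of the 40, 37 averaged 1 FPKM or more and were tested, whereas Dnah12, Hesx1 and Chdh were below this minimum. FPKM counts sequenced fragments per kilobase of a transcript, relative to all fragments of the library, so that levels can be compared between genes.

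The data came from 7 whole embryos of the B6C3F1 strain at embryonic day 11.5, 3 labelled SLMAP3 knockout (KO) and 4 labelled wild type (WT). In the KO mice, exon 3 of Slmap had been flanked by LoxP sites and removed with CMV-cre, a recombinase active throughout the body. The embryos came from crosses of heterozygous mice that no longer carried cre. The deletion removes the SLMAP3 isoform and leaves SLMAP1 and SLMAP2, tails had been taken for genotyping, and each embryo gave 1 library with no pooling.

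A gene that is altered in the germline is inherited together with the DNA around it. Where an allele made in mice of one strain is bred into another, or where the strain is a hybrid, homozygous mutants also tend to share a stretch of flanking DNA of one origin, and alleles of neighbouring genes in that stretch can differ in expression for reasons unrelated to the mutation. Such genes are called passengers. The comparison below addresses whether the genes near Slmap differed between KO and WT embryos more often than genes elsewhere. Sequence variants and the strain origin of the region were not analysed here.

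SLMAP is a tail-anchored membrane protein found at the sarcolemma, the centrosome and other membranes. In the GENCODE M21 annotation of GRCm38, the build named in the submitters' processing notes, Slmap lies on chromosome 14 from 26413168 to 26534931 on the reverse strand. Its FPKM values were 19.6, 16.0 and 16.6 in KO embryos KOAC8-6, KOAC10-5 and KOAC10-8, against 31.2, 23.9, 29.1 and 22.8 in WT embryos KOAC8-1, KOAC10-7, KOAC9-1 and KOAC10-2. The groups did not overlap. On the log2(FPKM + 1) scale KO embryos were at -0.59 relative to WT embryos (standard error 0.13, limma, adjusted p = 0.278), and the values per gene do not separate SLMAP3 from the other isoforms.

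The RefSeq promoter windows of the members, 250 bases before to 50 after an annotated start, were read to show the sequence that surrounds their starts. There were 48 windows for 36 of the 40 members, and none was found for Vdac2, Polr3a, Actr8 and Appl1. The members' windows held a median of 22 CpG dinucleotides, against 7 over all 32851 windows of the table. At least 20 CpG dinucleotides were present in 54.2% of the members' windows and in 26.5% of all windows. All windows were used whether or not their genes were expressed in these embryos, and windows of expressed genes were not compared separately. Windows of the 3 members in which KO and WT embryos did not overlap and which lie nearest to Slmap are shown first, 5′ to 3′ on the strand of the gene, with CpG dinucleotides in capitals (GRCm38.p6). They are Zcchc24 at chr14:25769023-25769322 on the reverse strand, Anxa11 at chr14:25841905-25842204 on the forward strand and Dennd6a at chr14:26573608-26573907 on the forward strand.
Zcchc24: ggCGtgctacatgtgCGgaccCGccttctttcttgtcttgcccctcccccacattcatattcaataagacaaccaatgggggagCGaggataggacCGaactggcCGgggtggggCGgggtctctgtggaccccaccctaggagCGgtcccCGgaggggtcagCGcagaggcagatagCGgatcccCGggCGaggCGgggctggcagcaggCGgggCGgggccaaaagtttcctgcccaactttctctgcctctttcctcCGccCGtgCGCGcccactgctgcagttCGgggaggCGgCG
Anxa11: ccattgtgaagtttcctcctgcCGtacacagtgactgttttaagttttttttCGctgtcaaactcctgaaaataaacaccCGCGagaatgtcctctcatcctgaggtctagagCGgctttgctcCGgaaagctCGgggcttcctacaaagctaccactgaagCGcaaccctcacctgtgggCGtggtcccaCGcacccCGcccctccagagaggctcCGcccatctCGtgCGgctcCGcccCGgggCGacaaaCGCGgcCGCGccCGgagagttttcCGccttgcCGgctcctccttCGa
Dennd6a: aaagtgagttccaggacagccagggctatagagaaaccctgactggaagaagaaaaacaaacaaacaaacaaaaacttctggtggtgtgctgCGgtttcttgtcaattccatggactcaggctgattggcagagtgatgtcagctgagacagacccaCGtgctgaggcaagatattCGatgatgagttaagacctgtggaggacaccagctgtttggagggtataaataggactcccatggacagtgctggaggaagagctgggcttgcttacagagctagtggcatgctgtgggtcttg

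The Zcchc24 and Anxa11 windows hold 23 and 25 CpG dinucleotides and the Dennd6a window only 3. The Dennd6a window holds TATAAA, a motif searched on both strands that was found in 10.4% of the members' windows and in 13.6% of all windows. A second RefSeq start of Dennd6a, at 26579300 to 26579599, has a window with 26 CpG dinucleotides. CCAAT was found in the Zcchc24 and Dennd6a windows, in 35.4% of the members' windows and in 37.4% of all windows. GGGCGG was found in the Zcchc24 and Anxa11 windows, in 64.6% of the members' windows and in 35.7% of all windows. A match is a description of the letters and not a site of binding.

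Some members lie in pairs that start beside each other on opposite strands. Pbrm1, a subunit of a chromatin remodelling complex, and Gnl3, a nucleolar GTPase, have promoter windows at chr14:31018888-31019187 on the forward strand and chr14:31019082-31019381 on the reverse strand. The windows share 106 bases, shown in capitals.
Pbrm1: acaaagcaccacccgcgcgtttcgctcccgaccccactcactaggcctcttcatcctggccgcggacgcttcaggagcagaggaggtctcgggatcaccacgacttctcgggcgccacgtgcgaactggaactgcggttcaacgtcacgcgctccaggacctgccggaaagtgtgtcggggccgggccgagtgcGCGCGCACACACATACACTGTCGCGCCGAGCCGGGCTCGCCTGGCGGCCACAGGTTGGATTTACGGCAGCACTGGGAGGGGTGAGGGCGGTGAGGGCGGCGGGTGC
Gnl3: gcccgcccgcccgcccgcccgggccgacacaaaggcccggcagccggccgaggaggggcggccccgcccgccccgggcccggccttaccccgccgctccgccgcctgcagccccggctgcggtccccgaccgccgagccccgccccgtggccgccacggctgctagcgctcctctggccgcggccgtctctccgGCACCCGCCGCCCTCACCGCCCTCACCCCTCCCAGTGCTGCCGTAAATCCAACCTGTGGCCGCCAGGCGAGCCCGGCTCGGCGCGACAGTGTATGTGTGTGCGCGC

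Relative sequencing depth was estimated indirectly, from the most frequent ratio of low FPKM values between each embryo and KOAC8-6 over 3638 genes. This estimate was between 0.81 and 1.21 times the average in the 7 embryos, and the sums of FPKM ran from 770063 to 861448. Marker genes of the liver summed to between 5.81 and 15.5 FPKM in the KO embryo KOAC10-5 and the WT embryos KOAC10-7 and KOAC10-2, and to between 458 and 794 FPKM in the other 4 embryos. Counts of members are therefore given below with and without these 3 embryos. In whole-embryo RNA, fewer cells of a type and less RNA per cell cannot be told apart. In limma over 16095 genes, an adjusted p under 0.05 (Benjamini-Hochberg) was reached by 6, which is 0.0373%, and an unadjusted p under 0.05 by 1846, which is 11.5%.

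Expression of the listed flanking genes differed little between KO and WT embryos. Of the 37 members, 0 reached an adjusted p under 0.05, and 5 had an unadjusted p under 0.05 in limma, which is 13.5% of them against the 11.5% of all genes. Dennd6a and Actr8 were higher in KO embryos, where 5.27% of all genes had such a p, and Zcchc24, Anxa11 and Arhgef3 were lower, where 6.19% did. KO and WT embryos did not overlap in 4 members, or 10.81%, against 11.6% of all genes. Both shares of the members were near those of the whole table. This holds for the listed members and not for the whole stretch. Among the other tested genes within 5 Mb, without Slmap, 9 of 33, or 27.3%, had an unadjusted p under 0.05, as described further below.

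The log2 fold changes of the 37 members ran from -0.70 for Stab1 to 0.21 for Gnl3, with 23 above and 14 below 0. Over all 16095 genes tested, 8554 were above and 7541 below 0. The median of the members was 0.04, against 0.01 over all genes, and their median distance from 0 was 0.10, against 0.093. A fold change within 0.2 of 0 on the log2 scale was found in 32 members, or 86.5%, against 79.5% of all genes. The 95% interval lay wholly within 0.5 of 0 in 33 members, or 89.2%, against 77.0% of all genes, so that for these members a change of 0.5 or more on this scale lay outside the interval. The intervals are on the log2(FPKM + 1) scale, on which a change of a weakly expressed gene appears smaller than it is.

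**Figure D1:**
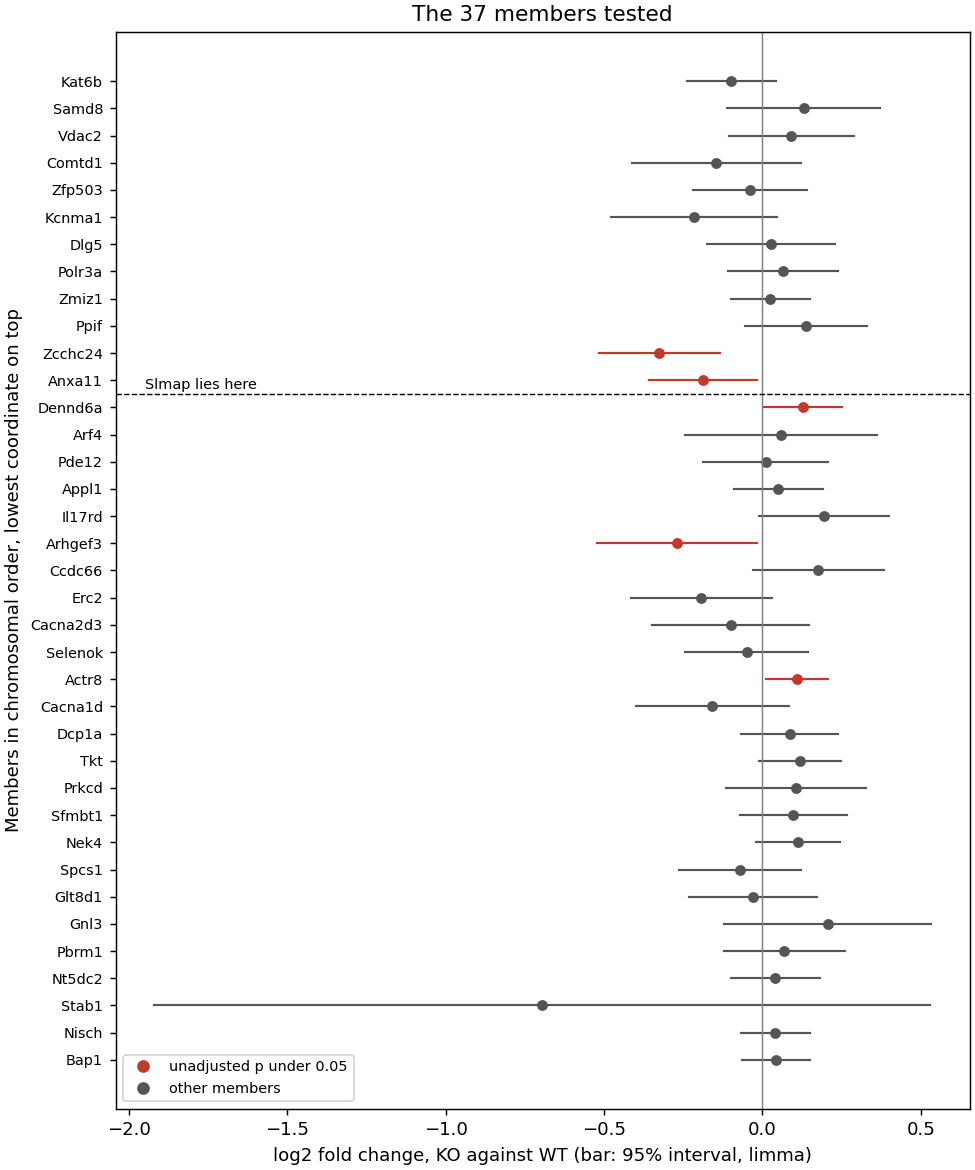
Log2 fold changes between KO and WT embryos (x axis) of the 37 members tested, in chromosomal order (y axis), with the 95% interval of limma as a bar. The 5 members with an unadjusted p under 0.05 are in red, most points lie within 0.2 of 0, and Stab1 has the widest interval.

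Without the 3 embryos that nearly lacked liver transcripts, 3 of the 37 members had an unadjusted p under 0.05, or 8.11%, against 10.6% of all genes. With 2 embryos left in each genotype, the groups did not overlap in 17 members, or 45.9%, against 46.3% of all genes. Within the embryos whose names begin with KOAC10, 2 of each genotype, 21 members were higher and 16 lower in KO embryos. Within those named KOAC8, 1 of each genotype, 22 were higher and 15 lower. The direction was the same in both for 28 of the 37. These directions were not counted over all genes, so that the counts are no trait of the members. The labels do not say what the shared start of a name stands for, and KOAC9 holds 1 WT embryo.

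From embryo to embryo, the typical member varied about as much as the typical gene of the whole table. Within a genotype, the standard deviation of log2(FPKM + 1) had a median of 0.11 over the members and 0.12 over all genes. In 33 of the 37 members, the highest of the 7 embryos was less than 1.5 times the lowest. This was not counted over all genes. The KO embryos KOAC8-6 and KOAC10-8 were each the highest of the 7 in 9 members, and the WT embryo KOAC9-1 was the lowest in 11. Over all genes, KOAC8-6 was highest in 13.4%, KOAC10-8 highest in 26.4% and KOAC9-1 lowest in 16.8%.

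Position was compared next, since passenger effects are expected to follow linkage. Of the members within 1 Mb of either end of Slmap, 4 of the 11 tested had an unadjusted p under 0.05, which is 36.4%, and of those at 1 Mb or more, 1 of 26, which is 3.85%, against the 11.5% of all genes. The limit of 1 Mb was chosen after the values were seen, so that these shares are a description without a test. Of the other genes of the stretch, without Slmap, 4 of 12 tested within 1 Mb had such a p, or 33.3%. Further out it was 0 of 4 at 1 to 2 Mb, 0 of 1 at 2 to 3 Mb and 1 of 2 at 3 to 4 Mb. At 4 to 5 Mb it was 4 of 14, or 28.6%, against 0 of 17 members. The low share of the far members was therefore not a trait of all far genes. The 4 near members did not share a direction, since Zcchc24, Anxa11 and Arhgef3 were lower and Dennd6a was higher in KO embryos. The other 7 near members tested, Zmiz1, Ppif, Arf4, Pde12, Appl1, Il17rd and Ccdc66, had log2 fold changes between 0.01 and 0.20. On the side of lower coordinates, 2 of 12 members had an unadjusted p under 0.05, and on the side of higher coordinates 3 of 25. As shares these are 16.7% and 12.0%, both near the 11.5% of all genes.

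**Figure D2:**
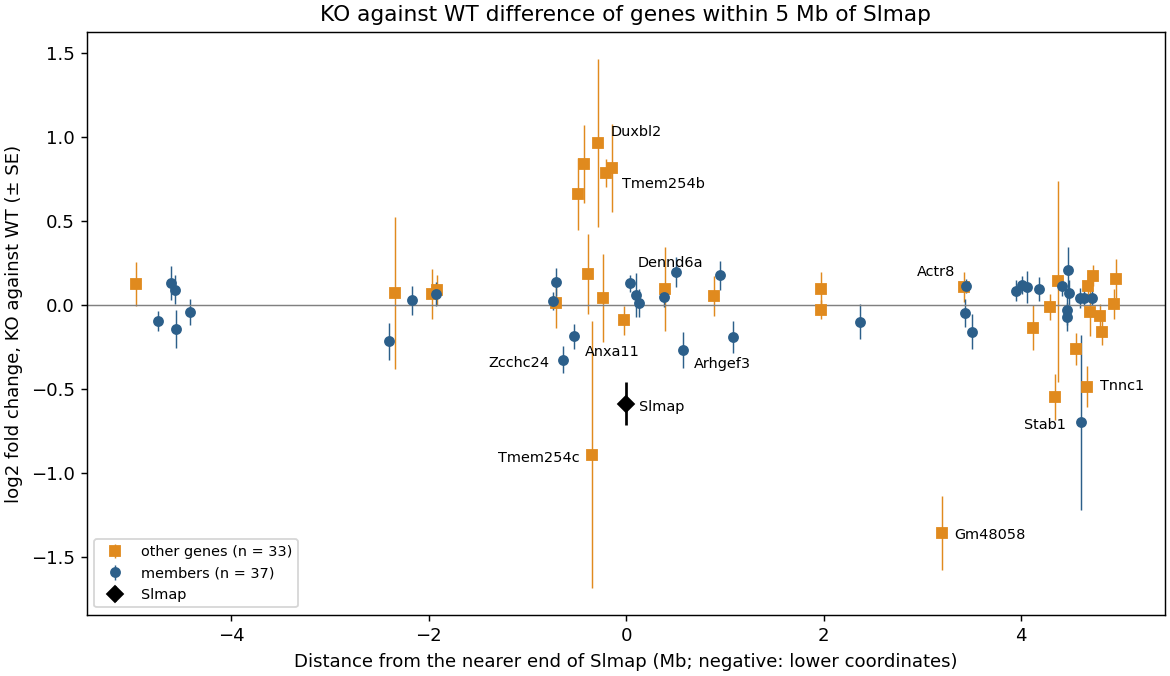
Log2 fold changes between KO and WT embryos with their standard errors (y axis) against the distance from the nearer end of Slmap in Mb (x axis, negative for lower coordinates), for 37 members, 33 other genes within 5 Mb and Slmap. Most members lie within 0.2 of 0, with Stab1 at -0.70 and Zcchc24 at -0.33 among the exceptions, whereas copies of Tmem254 and Duxbl just below Slmap lie above 0.5 with the exception of Tmem254c at -0.89.

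Among the members that act on RNA, Zcchc24 stood out. It encodes a zinc finger protein of the CCHC type and lies from 25711642 to 25769039, 0.644 Mb from Slmap on the side of lower coordinates. Zcchc24 had FPKM values of 16.4, 17.8 and 13.9 in KO embryos KOAC8-6, KOAC10-5 and KOAC10-8, against 19.8, 20.3, 20.5 and 20.3 in WT embryos KOAC8-1, KOAC10-7, KOAC9-1 and KOAC10-2. All KO embryos were below all WT embryos, and the WT embryos were close together while the KO embryo KOAC10-8 was the lowest. The mean of 16.0 ± 1.98 FPKM (SD, n = 3) was 79.2% of the WT mean of 20.2 ± 0.307 FPKM (SD, n = 4). It was at -0.33 on the log2 scale relative to WT embryos (standard error 0.08), with an adjusted p = 0.286 in limma, the smallest of the members. None of its exonic bases is shared with another annotated gene, and none of its stretches of 50 bases occurs in another transcript.

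The other RNA-related members were Gnl3, Polr3a, Dcp1a and Pde12, all with log2 fold changes above 0 and none with an unadjusted p under 0.05. Gnl3, which encodes nucleostemin, had the highest level of the group and the largest change, from 80.2 ± 9.03 FPKM in WT embryos (SD, n = 4) to 93.3 ± 16.4 FPKM in KO embryos (SD, n = 3). It ran from 75.1 FPKM in KOAC10-5 to 107 FPKM in KOAC10-8 among KO embryos, so that the groups overlapped (log2 fold change 0.21, standard error 0.14, limma, adjusted p = 0.591). Polr3a encodes the largest subunit of RNA polymerase III, Dcp1a takes part in mRNA decapping, and Pde12 is a mitochondrial nuclease. Their log2 fold changes were 0.07, 0.09 and 0.01.

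In the group of membrane traffic and the secretory pathway, Anxa11 was lower and Dennd6a higher in KO embryos. Anxa11 encodes annexin A11, a calcium-dependent phospholipid-binding protein, and lies from 25842156 to 25886804, 0.526 Mb from Slmap on the side of lower coordinates. The FPKM values of Anxa11 were 2.70, 2.85 and 2.67 in KO embryos KOAC8-6, KOAC10-5 and KOAC10-8, against 3.28, 3.32, 3.47 and 2.96 in WT embryos KOAC8-1, KOAC10-7, KOAC9-1 and KOAC10-2. The groups did not overlap, with the WT embryo KOAC10-2 next to the KO embryo KOAC10-5. This was a log2 fold change of -0.19 (standard error 0.07, limma, adjusted p = 0.406), with KO embryos at 84.0% of the WT mean. Of the 50-base stretches of Anxa11 transcripts, 14.5% also occur in Gm2260, an annotated pseudogene that lies between the copies of Tmem254 and Duxbl. All stretches of Gm2260 are shared with other transcripts, Anxa11 first among them, and reads from the shared stretches cannot be told apart.

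Dennd6a, which encodes an exchange factor for a Rab GTPase, is the member nearest to Slmap, from 26573856 to 26634322 and 0.039 Mb from its end. Its FPKM values were 15.5, 14.7 and 14.5 in KO embryos KOAC8-6, KOAC10-5 and KOAC10-8, against 13.8, 13.9, 12.9 and 13.6 in WT embryos KOAC8-1, KOAC10-7, KOAC9-1 and KOAC10-2. All KO embryos were above all WT embryos, by a small margin. The KO mean of 14.9 ± 0.515 FPKM (SD, n = 3) was 109.9% of the WT mean of 13.6 ± 0.436 FPKM (SD, n = 4), a log2 fold change of 0.13 (standard error 0.05, limma, adjusted p = 0.424).

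The other 5 genes of this group did not reach an unadjusted p under 0.05. Arf4, a small GTPase of the Golgi, was the most abundant at 173 ± 21.3 FPKM in KO (SD, n = 3) and 167 ± 25.4 FPKM in WT embryos (SD, n = 4). Its overlapping neighbour Pde12 shares 11.7% of the 50-base stretches of Arf4 on the opposite strand. Appl1 encodes an endosomal adaptor, Spcs1 a subunit of the signal peptidase, Selenok a selenoprotein of the endoplasmic reticulum and Glt8d1 a glycosyltransferase-like protein, and their log2 fold changes ran from -0.07 for Spcs1 to 0.05 for Appl1. Spcs1 and Glt8d1 start beside each other on opposite strands, and both had values slightly below 0.

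**Figure D3:**
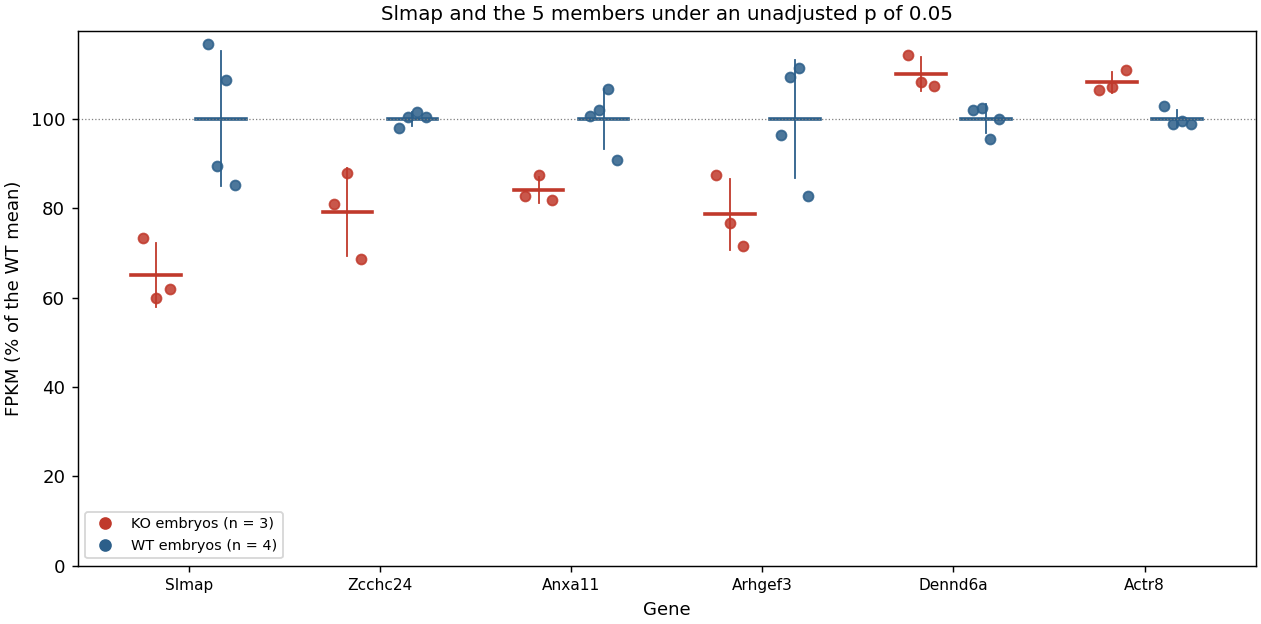
FPKM as a percentage of the WT mean (y axis, from 0) in each of 3 KO embryos and 4 WT embryos (points) for Slmap and the 5 members with an unadjusted p under 0.05, with the mean as a line and the SD as a bar. KO means were 65.1% for Slmap, 79.2% for Zcchc24 and 109.9% for Dennd6a, and only in Arhgef3 did the KO and WT embryos overlap.

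Among signalling genes, Arhgef3 had the largest difference. It encodes a guanine nucleotide exchange factor for RhoA, a GTPase that controls actin contractility, and lies from 27114899 to 27403911, 0.58 Mb from Slmap on the side of higher coordinates. Its FPKM values were 3.65, 3.21 and 2.99 in KO embryos KOAC8-6, KOAC10-5 and KOAC10-8, against 4.03, 4.56, 4.65 and 3.45 in WT embryos KOAC8-1, KOAC10-7, KOAC9-1 and KOAC10-2. The KO embryo KOAC8-6 was above the WT embryo KOAC10-2, so that the groups overlapped. Relative to WT embryos it was at -0.27 on the log2 scale (standard error 0.11, limma, adjusted p = 0.418), with KO embryos at 78.6% of the WT mean.

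Dlg5, a scaffold protein of cell polarity, Prkcd, a protein kinase C, Il17rd, an antagonist of FGF signalling, and Nisch, which encodes an imidazoline-binding protein, all had log2 fold changes above 0 without an unadjusted p under 0.05. Nisch had the highest level of all members, at 254 ± 5.26 FPKM in KO (SD, n = 3) and 247 ± 7.53 FPKM in WT embryos (SD, n = 4), and its log2 fold change of 0.04 had a 95% interval from -0.07 to 0.15. Il17rd was the furthest from 0, from 9.67 ± 0.94 FPKM in WT (SD, n = 4) to 11.2 ± 0.763 FPKM in KO embryos (SD, n = 3), with groups that overlapped (log2 fold change 0.20, standard error 0.09, limma, adjusted p = 0.454).

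Of the chromatin and transcription genes, Actr8 was the member with an unadjusted p under 0.05. It encodes an actin-related subunit of the INO80 chromatin remodelling complex and lies from 29978337 to 30006354, 3.443 Mb from Slmap. Its FPKM values were 38.1, 38.3 and 39.6 in KO embryos KOAC8-6, KOAC10-5 and KOAC10-8, against 36.7, 35.3, 35.6 and 35.3 in WT embryos KOAC8-1, KOAC10-7, KOAC9-1 and KOAC10-2. The groups did not overlap, and Actr8 had the smallest spread within a genotype of all members. The KO mean was 108.2% of the WT mean, a log2 fold change of 0.11 (standard error 0.04, limma, adjusted p = 0.400).

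The other chromatin genes tested stayed within 0.1 of 0 on the log2 scale. Bap1, a deubiquitinase and tumour suppressor, had the highest level, at 59.0 ± 1.97 FPKM in KO (SD, n = 3) and 57.2 ± 1.63 FPKM in WT embryos (SD, n = 4), with a 95% interval of its log2 fold change from -0.06 to 0.15. Kat6b, a histone acetyltransferase, was at -0.10 (standard error 0.06), Sfmbt1, a Polycomb-related protein, at 0.10, Pbrm1 at 0.07, Zfp503, a zinc finger repressor, at -0.04 and Zmiz1, a transcriptional coactivator, at 0.03. Hesx1, a homeobox gene of the early forebrain and pituitary, averaged 0.566 FPKM over the KO embryos against 0.635 FPKM over the WT embryos and was not tested.

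Of the genes of mitochondria and metabolism, 0 of the 6 tested had an unadjusted p under 0.05, with 5 of them above 0 and a median log2 fold change of 0.11. Nt5dc2 had the highest level, at 173 ± 12.1 FPKM in KO (SD, n = 3) and 168 ± 5.75 FPKM in WT embryos (SD, n = 4). Tkt, the transketolase of the pentose phosphate pathway, was at 171 ± 6.11 FPKM in KO (SD, n = 3) and 157 ± 7.83 FPKM in WT embryos (SD, n = 4), with groups that overlapped because the WT embryo KOAC8-1 was at 167 FPKM (log2 fold change 0.12, standard error 0.06, limma, adjusted p = 0.467). Vdac2, a channel of the outer mitochondrial membrane, Ppif, the cyclophilin of the mitochondrial matrix, and Samd8, an enzyme of sphingolipid synthesis, had log2 fold changes of 0.09, 0.14 and 0.13. Comtd1, with the largest distance from 0 in this group, was at -0.14 (standard error 0.11), and 26.8% of its stretches occur in the overlapping A430057M04Rik. Chdh, the choline dehydrogenase, averaged 0.0788 FPKM over the KO embryos against 0.114 FPKM over the WT embryos and was not tested.

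All 4 members of the channel and synapse group had log2 fold changes below 0, the median being -0.18, but none had an unadjusted p under 0.05. Kcnma1, a calcium-activated potassium channel, was at 2.26 ± 0.219 FPKM in KO (SD, n = 3) and 2.80 ± 0.425 FPKM in WT embryos (SD, n = 4). Its values overlapped, since the WT embryo KOAC9-1 at 2.20 FPKM was below the KO embryo KOAC10-5 at 2.51 FPKM (log2 fold change -0.22, standard error 0.11, limma, adjusted p = 0.4997). Erc2, a protein of the presynaptic active zone, was at 4.43 ± 0.593 FPKM in KO (SD, n = 3) and 5.19 ± 0.393 FPKM in WT embryos (SD, n = 4), a mean over the 7 embryos close to that of Cacna2d3. The calcium channel subunits Cacna1d and Cacna2d3 were at -0.16 and -0.10 on the log2 scale. Neuron markers gave a median log2 fold change of -0.10 with 0 of 6 under an unadjusted p of 0.05, and their summed level was 575 to 715 FPKM among KO embryos against 598 to 737 FPKM among WT embryos. Their part in the values of the channel genes was not tested.

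The cilium and microtubule genes Ccdc66, a centrosomal and ciliary protein, and Nek4, a NIMA-related kinase, had log2 fold changes of 0.18 and 0.11. Ccdc66 was at 16.2 ± 1.83 FPKM in KO (SD, n = 3) and 14.2 ± 0.97 FPKM in WT embryos (SD, n = 4), with groups that overlapped. Of its stretches, 36.7% occur in Tasor, which overlaps it on the opposite strand, and the reads of such stretches cannot be assigned to one strand with a library kit that does not mark strand. Dnah12, a heavy chain of axonemal dynein, was at 0.101 FPKM in the KO embryo KOAC8-6 and below 0.03 FPKM in the other 6 embryos, and it was not tested.

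Stab1, which encodes the scavenger receptor stabilin-1 of sinusoidal endothelium and of a subset of macrophages, varied most of all members. It lies from 31139013 to 31168641, 4.604 Mb from Slmap. Stab1 had FPKM values of 13.4, 14.4 and 39.2 in KO embryos KOAC8-6, KOAC10-5 and KOAC10-8, against 49.4, 13.9, 36.8 and 44.2 in WT embryos KOAC8-1, KOAC10-7, KOAC9-1 and KOAC10-2. The embryos fell into 3 low and 4 high values, and each set held embryos of both genotypes. The log2 fold change of -0.70 had a standard error of 0.52 (limma, adjusted p = 0.625), and its 95% interval ran from -1.92 to 0.53. The spread of Stab1 within a genotype was 0.81 on the log2 scale, and 2.51% of all genes had a larger one.

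The neighbours of Stab1 did not share this split. Nt5dc2 and Nisch, which lie on either side of it, ran from 164 to 187 FPKM and from 236 to 259 FPKM over the 7 embryos. The macrophage markers summed to 16.7 to 18.5 FPKM in the 3 embryos low in Stab1 and to 18.1 to 23.8 FPKM in the other 4. Of these 4, only the KO embryo KOAC10-8, at 18.1 FPKM, lay within the range of the low 3. The endothelium markers summed to 57.8 to 62.8 FPKM and to 58.2 to 64.0 FPKM, which overlap. Liver markers summed to 458 FPKM in the KO embryo KOAC8-6, low in Stab1, and to 9.07 FPKM in the WT embryo KOAC10-2, high in Stab1. The other low embryos, KOAC10-5 and KOAC10-7, were at 15.5 and 5.81 FPKM in liver markers, and the other high ones at 539 to 794 FPKM. The part of cell content in the values of Stab1 was not tested.

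**Figure D4:**
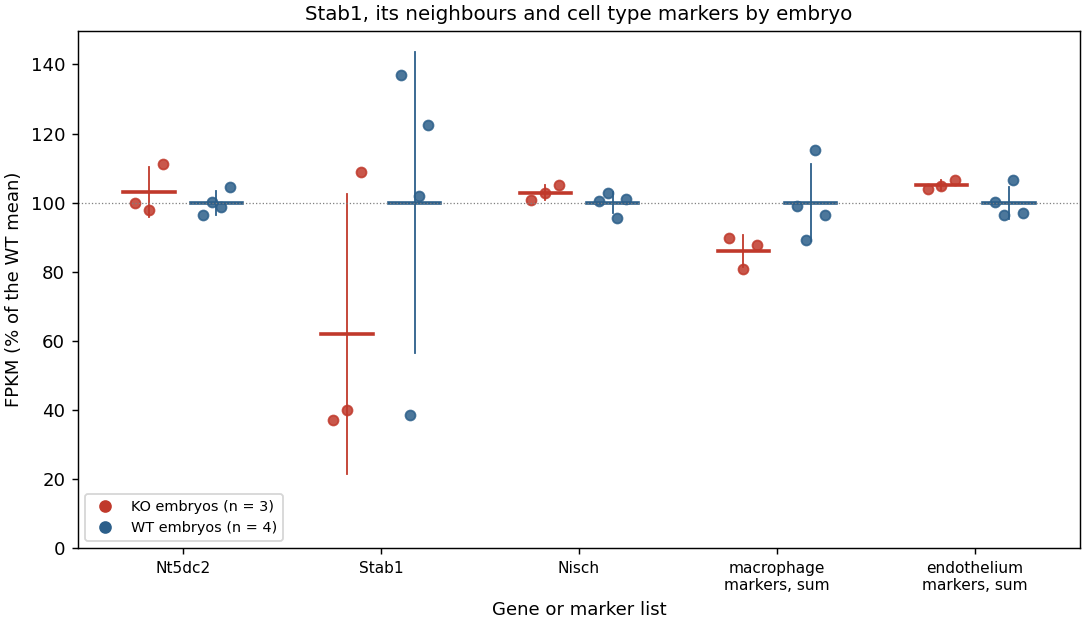
FPKM as a percentage of the WT mean (y axis, from 0) in each of 3 KO embryos and 4 WT embryos (points) for Stab1, its neighbours Nt5dc2 and Nisch, and the summed macrophage and endothelium markers, with the mean as a line and the SD as a bar. Stab1 has 3 embryos near 14 FPKM and 4 above 36 FPKM, and the other 4 items show no such split.

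The other genes of the same stretch were read beside the members. The annotation places 72 more genes of the table within 5 Mb of Slmap, Slmap and Wnt5a included, and 34 of them were tested. None had an adjusted p under 0.05, and 10 of the 34, or 29.4%, had an unadjusted p under 0.05, against 11.5% of all genes. Without Slmap this was 9 of 33, or 27.3%, of which 5 were higher and 4 lower in KO embryos. The difference between this share and that of the members was not tested. Of the 5 higher genes, 4 are copies that share most of their sequence, so that they are not separate observations in this count. The share, with Slmap, also moved with the filter. It was 13.9% without a filter on low values, against 9.84% of all genes, and 40% with a minimum mean of 5 FPKM, against 11.7%. Wnt5a, a ligand of planar cell polarity signalling, was at 38.9 ± 1.85 FPKM in KO (SD, n = 3) and 39.7 ± 1.86 FPKM in WT embryos (SD, n = 4), a log2 fold change of -0.03.

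Of the 5 higher genes, 4 are copies of Tmem254 and Duxbl, which lie between Anxa11 and Slmap in an array of near-identical genes. Tmem254b had FPKM values of 17.9, 18.6 and 20.9 in KO embryos KOAC8-6, KOAC10-5 and KOAC10-8, against 10.204, 11.9, 9.77 and 10.99 in WT embryos KOAC8-1, KOAC10-7, KOAC9-1 and KOAC10-2. The lowest KO value was well above the highest WT value, with a log2 fold change of 0.78 (standard error 0.08, limma, adjusted p = 0.0539). With a robust eBayes fit this adjusted p was 0.0387. Tmem254a, Duxbl1 and Duxbl3 had log2 fold changes of 0.66, 0.84 and 0.81 and adjusted p-values in limma of 0.355, 0.312 and 0.354, and in each of them all KO embryos were above all WT embryos.

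The values of single copies are uncertain, because the 6 copies share between 73.1% and 100% of their 50-base stretches with other transcripts. Tmem254c, for example, was listed at 0 in the KO embryos KOAC8-6 and KOAC10-5 and the WT embryo KOAC8-1. The sum of the 3 Tmem254 copies was 28.4 ± 4.94 FPKM in KO (SD, n = 3) and 18.2 ± 3.89 FPKM in WT embryos (SD, n = 4), a log2 fold change of 0.62 (limma, adjusted p = 0.344, exact permutation p = 0.0571, two-sided). The sum of the 3 Duxbl copies was 26.4 ± 3.71 FPKM in KO (SD, n = 3) and 14.2 ± 3.19 FPKM in WT embryos (SD, n = 4), a log2 fold change of 0.87 (limma, adjusted p = 0.272, exact permutation p = 0.0286, two-sided, the smallest that 3 embryos against 4 allow). In both sums all KO embryos were above all WT embryos. The copies were summed after their values in these same embryos had been seen, so that the p-values of the sums are a description and no independent test. The members on either side of the array, Anxa11 and Dennd6a, had far smaller log2 fold changes, at -0.19 and 0.13.

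**Figure D5:**
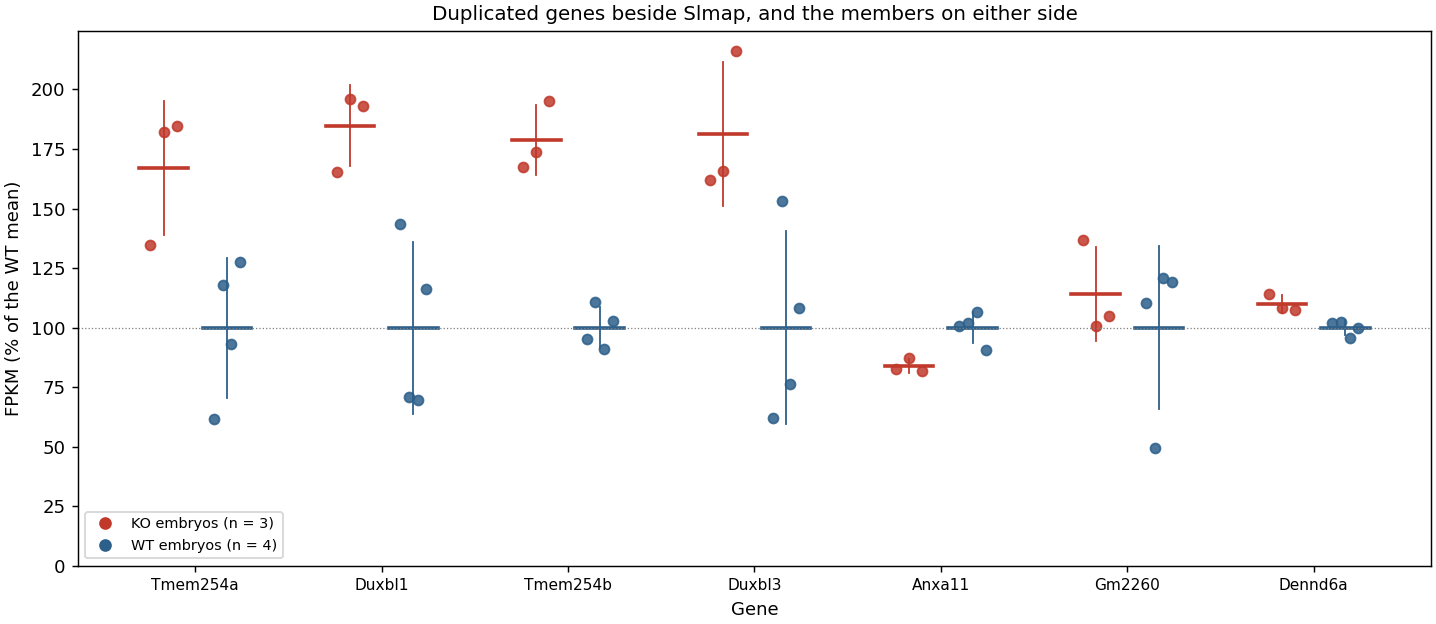
FPKM as a percentage of the WT mean (y axis, from 0) in each of 3 KO embryos and 4 WT embryos (points) for 4 copies of Tmem254 and Duxbl, the pseudogene Gm2260 and the flanking members Anxa11 and Dennd6a, with the mean as a line and the SD as a bar. In the 4 copies the KO means lie between 167.1% and 184.8% of the WT mean and the KO and WT embryos do not overlap, and in Gm2260 they do.

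The remaining 5 genes under an unadjusted p of 0.05 lay on the side of higher coordinates, 3.197 Mb or more from Slmap. Gm48058, an annotated long noncoding RNA, had FPKM values of 2.60, 5.25 and 3.75 in KO embryos KOAC8-6, KOAC10-5 and KOAC10-8, against 12.0, 9.98, 8.81 and 14.6 in WT embryos KOAC8-1, KOAC10-7, KOAC9-1 and KOAC10-2. The groups did not overlap, and the KO mean was 34.1% of the WT mean (log2 fold change -1.36, standard error 0.22, limma, adjusted p = 0.258). It shares no 50-base stretch with another transcript. Smim4, a small mitochondrial protein, and Dnah1, a heavy chain of axonemal dynein, had log2 fold changes of -0.26 and 0.17 (limma, adjusted p = 0.395 and 0.391). Without the KO embryo KOAC8-6, the value of Smim4 was -0.15.

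The muscle genes Mustn1 and Tnnc1, the troponin C of heart and slow skeletal muscle, had log2 fold changes of -0.55 and -0.49, both with an adjusted p = 0.286 in limma. The KO mean was 47.5% of the WT mean for Mustn1 and 70.7% for Tnnc1, and with a pseudocount of 0.1 in place of 1 the log2 fold change of Mustn1, a gene of low level, was -0.98. Mustn1 lies 4.344 Mb and Tnnc1 4.673 Mb from Slmap, among members such as Nisch and Bap1 that stayed near 0. Skeletal muscle markers had values below those of WT embryos in 6 of 6 cases, all with an unadjusted p under 0.05 and none with an adjusted p under 0.05 in limma, and they summed to 187 to 209 FPKM among KO embryos against 258 to 330 FPKM among WT embryos. The part of muscle content in the values of Mustn1 and Tnnc1 was not tested. Of the other lists of markers, later globins were lower with 4 of 4, neural progenitors higher with 5 of 6 and heart higher with 3 of 5 under an unadjusted p of 0.05. The primitive globins were lower with 1 of 3, the endothelium list was higher with 2 and lower with 1 of 5, the liver list had 0 of 7, the macrophage list 0 of 5, and the trophoblast genes, at summed levels of at most 0.964 FPKM, were not tested.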

How the data were processed

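RNA of each whole embryo was sequenced with the TruSeq RNA v2 kit, and the authors deposited 1 FPKM value per gene and embryo. The submitters' processing notes name Salmon, DESeq2, MultiQC and GRCm38, with no versions. The deposited table also holds columns of the authors' own comparison (mean of normalised counts, log2 fold change, its standard error, p-value and adjusted p-value), which were not used. Every FPKM column was matched to an embryo by its name (0 columns unmatched). Read counts were not analysed here, so that the depth is known only relative to the other embryos.

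FPKM values were transformed to log2(FPKM + 1). Genes averaging 1 FPKM or more entered a limma fit (lmFit and trended eBayes, version 3.58.1, R 4.3.3) with genotype as the only term, and p-values were adjusted by Benjamini and Hochberg's method across the table at a threshold of 0.05. For summed copies, exact permutation tests used the 35 assignments of the embryos. The fit was run on simulated data with changes larger than those of most members. Its recovery of changes as small as theirs was not shown. P-values measure the spread between the 7 embryos, 3 KO and 4 WT, each a separate embryo.

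Positions came from GENCODE M21, in which 14 of 25461 genes were not found, and its transcripts were searched for 50-base stretches that recur in other genes. Promoter windows came from RefSeq (GRCm38.p6).

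The members, function groups and marker lists were chosen with earlier results of these data known. Members with an unadjusted p under 0.05 or without overlap of KO and WT embryos are given in full, and of the other members the most abundant and the most changed of each group. Other genes within 5 Mb are named where their unadjusted p is under 0.05, and Wnt5a, Gm2260, Tmem254c and further members were named after their values were seen. The fit was repeated under 17 other settings. Leaving out the 3 embryos with few liver transcripts and summing the copies of Tmem254 and Duxbl were chosen after seeing the data.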

Additional observations from a re-analysis of the deposited data

Results flagged for a closer look

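In 3 members, the WT embryo KOAC8-1 stood far above the other 3 WT embryos, by a gap that took most of the range of the 4. The gap was 0.995 of the range for Samd8, 0.891 for Arf4 and 0.862 for Prkcd, all past the 95% critical value of Dixon's test. Samd8 was at 8.49 FPKM in KOAC8-1 and near 6.68 FPKM in the other WT embryos, Arf4 at 205 FPKM against 151 to 157 FPKM, and Prkcd at 31.1 FPKM against 26.4 to 27.1 FPKM. Of the 47 genes examined, chance would flag about 1 in 20. Samd8 and Prkcd were also highest among KO embryos in KOAC8-6, at 8.71 and 34.1 FPKM, whereas Arf4 was highest there in KOAC10-8, at 196 FPKM.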

How the results depend on the processing

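No member had an adjusted p under 0.05 in limma under any of 17 other settings or without the 3 embryos with few liver transcripts. Over these, the adjusted p of Zcchc24 ran from 0.170 to 0.569, that of Anxa11 from 0.301 to 0.685, that of Dennd6a from 0.312 to 0.664, that of Arhgef3 from 0.378 to 0.712 and that of Actr8 from 0.310 to 0.676, and no log2 fold change reversed. Zcchc24 kept an unadjusted p under 0.05 in all 18, Anxa11 in 9 of the 17 that tested it, Dennd6a in 7 of 18, Arhgef3 in 7 of 17 and Actr8 in 10 of 18. The count of members higher in KO embryos at an unadjusted p under 0.05 was 2, and 1 with quantile normalization, with the shared start of the embryo names as a block, with Afp as a covariate and with a robust eBayes fit. Leaving out 1 embryo gave 0 (without the WT embryo KOAC9-1 or KOAC10-2) to 4 (without the KO embryo KOAC10-5), and 1 without KOAC8-6, KOAC10-7 or KOAC10-8. The count of members lower was 3, and 1 without a filter on low values, with a minimum mean of 5 FPKM and without the 3 embryos with few liver transcripts. Leaving out 1 embryo gave 1 (without the KO embryo KOAC10-8) to 3. With a minimum mean of 5 FPKM, Anxa11 and Arhgef3, which averaged 3.04 and 3.79 FPKM, were removed by the filter and not tested. The count of members whose groups did not overlap was 4, and leaving out 1 embryo gave 5 to 10, with 8 without KOAC8-6, 9 without KOAC8-1 and 10 without KOAC10-5. Fewer embryos overlap less often, and the share over all genes without KOAC10-5 was 28.4%, against 27.0% of the members. The share over all genes was 18.4% without KOAC8-6 and 18.1% without KOAC8-1, against 21.6% and 24.3% of the members. Without the 3 embryos with few liver transcripts, the groups did not overlap in 17 members, or 45.9%, against 46.3% of all genes. Over all genes, 6 had an adjusted p under 0.05, and 10 with Afp as a covariate, 14 without the 3 embryos with few liver transcripts and 7 to 12 over the fits that left out 1 embryo, with 12 without KOAC8-1. The causes of the moves other than that of the filter at 5 FPKM were not tested. Tmem254b had adjusted p-values from 0.0387 (robust eBayes) to 0.344 (the 3 copies summed). The log2 fold change of Slmap ran from -0.71 to -0.50. KO and WT embryos share no replicate numbers in the labels, but some share the start of their names. With this start as a block, 3 members had an unadjusted p under 0.05, or 8.11%, against 8.69% of all genes. The median log2 fold change of the members, 0.04, was 0.02 with the block and without KOAC9-1 and 0.06 with a minimum mean of 5 FPKM. KOAC9-1 is the only embryo with its start of the name, so that the block takes it out of the comparison. The fit with the block and the fit without KOAC9-1 gave the same fold changes and are not separate checks. Without the 3 embryos with few liver transcripts, Duxbl3 was at 1.25 in place of 0.81. With 3 KO embryos, a median standard error of 0.082 over the members limits what can be seen, and shared or overlapping sequence blurs the values of Anxa11, Ccdc66, Comtd1, Ppif and Arf4.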
